A study of Mus musculus with 6 samples.

Results

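Translation initiation factors bring the small ribosomal subunit, the initiator tRNA and the mRNA together at the start codon. The genes described here are the 50 rows, of 15705 genes with a score, whose symbol begins with Eif and a digit, leaving out the Argonaute genes (Eif2c) and Eif4a3, a core protein of the exon junction complex. The choice used symbols only and no measured value. The list includes the eIF2 kinases, the 4E-binding proteins and Eif1ad, which shares a domain with eIF1A, because their symbols match.

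In initiation, eIF2 carries the initiator tRNA to the small subunit, eIF3 and eIF1, eIF1A and eIF5 set up scanning, and eIF4F (eIF4E, eIF4G and eIF4A) binds the capped end of the mRNA and unwinds it. Supply of active eIF2 is limited by eIF2B, its exchange factor, and by 4 kinases that phosphorylate eIF2 under stress, while the 4E-binding proteins hold back eIF4E. In neurons these steps are known for controlling protein synthesis at synapses and in memory formation.

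The 3 N40K libraries came from cultured neurons given lentivirus FCK1.3GW-N40K, and the 3 Control libraries from neurons given the vector FCK1.3GW, in which EGFP takes the place of N40K. N40K is an N-terminal fragment of the Snrnp70 protein, a part of the U1 snRNP, which recognises the 5′ splice site at the start of an intron. All cells were cortical neurons of C57BL/6 embryos taken at embryonic day 18 and exposed to virus on culture day 7 for 3 days, and in both constructs a short CaMKII promoter drove the insert, so expression depends on cells in which that promoter works. The deposited value is an Sd score per gene and library, read here as splicing deficiency: a ratio in which a higher value stands for relatively more unspliced RNA. It is no measure of how much RNA a gene makes, and more unspliced RNA and less spliced RNA cannot be told apart in it. In bulk cultures a change in the mix of cells and a change within cells cannot be told apart either. Nothing in the labels says that replicates are separate cultures; p-values therefore speak to the spread between libraries, which may be technical.

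The depth behind each score is unknown. Library medians over all genes were 0.0146 to 0.0163 with N40K and 0.0127 to 0.0136 in Control. All 8 neuronal markers checked had a score, as did 4 of 4 astrocyte, 3 of 4 microglial and 3 of 4 oligodendrocyte markers; a ratio within a gene gives no marker level. Snrnp70 itself scored 0.0242, 0.0224 and 0.0234 with N40K and 0.0215, 0.021 and 0.0223 in Control (limma adjusted p = 0.376); whether N40K reads count towards it is not stated.

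Because U1 acts at the 5′ splice site, the sites of members for which the annotation holds a transcript that keeps the intron are shown here: every such site of a called gene, and a site each of Eif4a1 and Eif1 for comparison, the Eif4a1 site being its best match. GENCODE M21 (build GRCm38, not the mm9 build of the scores) has such sites for 40 introns of 21 members (sites on 1 mouse chromosome were not used here), against 7684 introns of 4002 genes in the table. Each line gives the last 10 exonic and first 15 intronic bases, 5′ to 3′ on the gene's strand. Capitals mark the last 3 exonic and first 6 intronic bases, the stretch that pairs with U1.
Eif5 intron 3 (chr12:111539678-111539702, plus strand): gattgctAAGGTAATGctggttttt
Eif5 intron 4 (chr12:111539873-111539897, plus strand): cctccaaCGTGTAAGTaaagcttgg
Eif5 intron 5 (chr12:111540293-111540317, plus strand): aacagatCTGGTGAGTgccttttag
Eif5 intron 6 (chr12:111540563-111540587, plus strand): aacccacCTGGTAAGTctttttaat
Eif5 intron 9 (chr12:111542832-111542856, plus strand): ttttctaAGAGTAAGAgacattttt
Eif4enif1 intron 5 (chr11:3220521-3220545, plus strand): acgtttcAGGGTTTGTcctctaacc
Eif2s2 intron 2 (chr2:154888168-154888192, minus strand): aggaagaAAGGTGAATagttgtggc
Eif2s2 intron 3 (chr2:154887689-154887713, minus strand): agctataAAGGTAGTAttgttttct
Eif3a intron 11 (chr19:60773492-60773516, minus strand): tcacattCTGGTGTGTgtcttgaag
Eif4b intron 7 (chr15:102088744-102088768, plus strand): tatgaccGAGGTAGTCatgataata
Eif3d intron 2 (chr15:77968442-77968466, minus strand): gctgggaAAGGTATTGggtcccttc
Eif3d intron 3 (chr15:77968161-77968185, minus strand): aggtacaCAAGTAAGTggtcctcgg
Eif4a1 intron 10 (chr11:69667680-69667704, minus strand): acatccaCAGGTAAGTctaggtctg
Eif1 intron 3 (chr11:100321040-100321064, plus strand): cctgataGAGGTGAGTttaggccgc

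The most frequent base at each of the 9 positions, over all 7684 sites, spells CAGGTAAGT. The median member site matched 6 of these 9 bases, as did the median site of all genes. Eif4a1 intron 10 was the only member site with all 9, 2.5% of member sites against 0.768% of all. The other 5 Eif4a1 sites, not printed, matched 5 to 7. Among genes that rose, the Eif5 sites matched 5 to 8 bases, the Eif4enif1 site 5, the Eif2s2 sites 6 and 5, and the Eif3a site 6. Among genes that fell, the Eif3d sites matched 5 and 8 and the Eif4b site 5. These are introns for which a retaining transcript is annotated, and since the score is given per gene, the intron that carries a change is not known.

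With N40K, 13 of the 50 initiation factor genes rose, 3 fell and 34 did not pass (limma, Benjamini-Hochberg adjusted p under 0.05 over all 15705 genes). That is 26.0% rising and 6.0% falling, beside 21.5% and 4.11% of all genes. In 17 members every N40K library stood above every Control library, and in 5 below, or 34.0% and 10%, beside 33.6% and 8.67% of all genes. The shares are near those of all genes. The median ratio of N40K to Control score was 1.03 in the members and 1.11 in all genes. In the 34 genes that did not pass, ratios ran from 0.776 to 1.35.

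**Figure D1:**
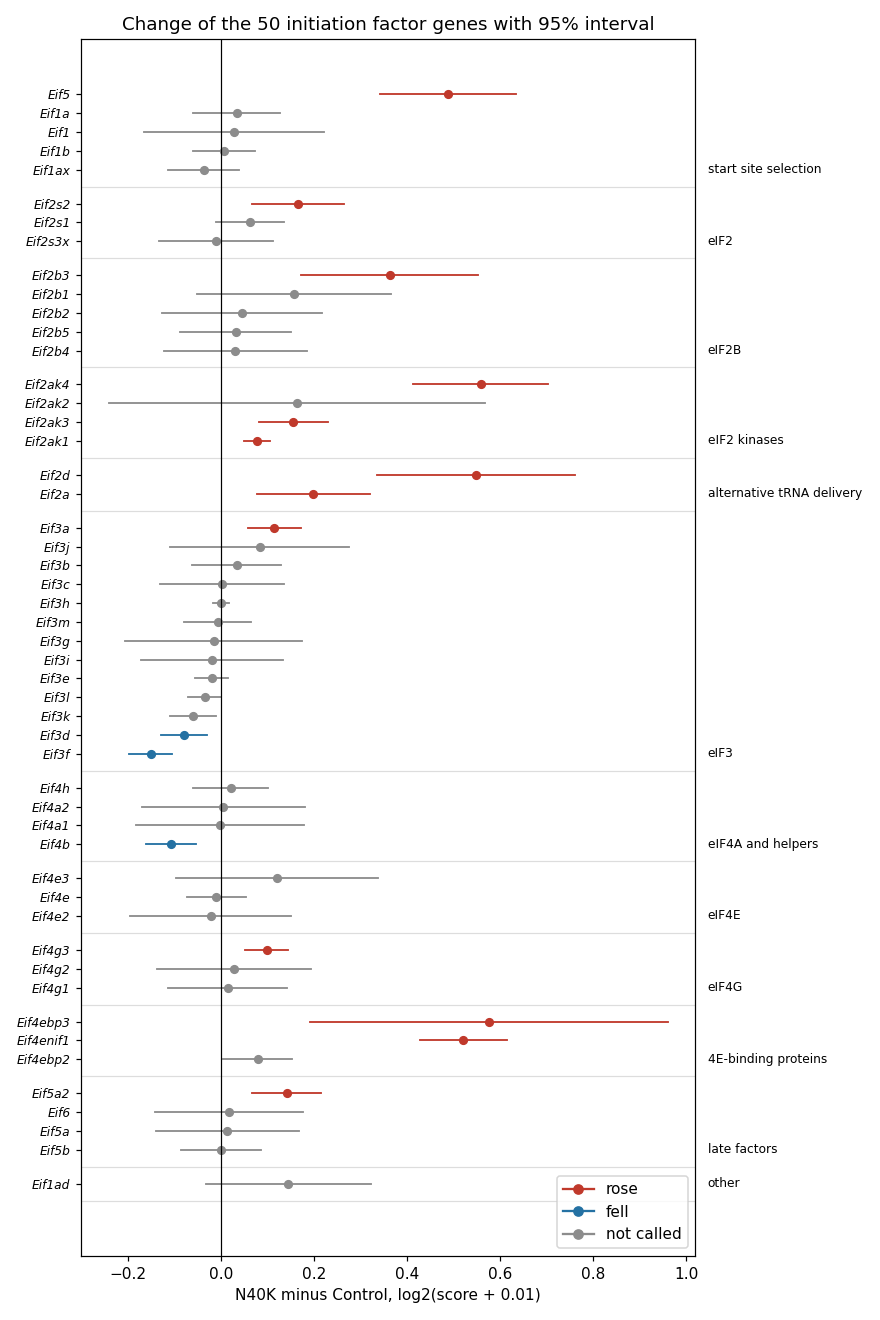
Change of each of the 50 initiation factor genes, N40K minus Control on the log2(score + 0.01) scale (x axis), by complex (rows); points are estimates and lines their 95% limma intervals, unadjusted. On this scale the largest changes belong to Eif4ebp3, Eif2ak4, Eif2d, Eif4enif1 and Eif5, while most eIF3, eIF4A and eIF4E genes lie near 0. The scale understates changes of low scores: Eif2ak1 lies at 0.08 with a ratio of 1.78, and Eif3f at -0.15 with a ratio of 0.571.

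The calls split into a firm and a less firm set. The rises of Eif4enif1, Eif2ak4, Eif2d and Eif5 and the fall of Eif3f passed the test in each of the 17 other settings tried in which they had a value; Eif3f had none in the setting without the lowest 25% of genes. The setting with no filter could not end a call, since the filter removed 0 genes. The other 11 calls each ended in at least 1 setting. Library-median centring subtracts each library's median log2 value and moves every log2 change by -0.13. It gave 5 rises and 11 falls among members, and 9.75% and 18.4% of all genes. Quantile normalization gave 6 and 9 (12.9% and 12% of all genes), and centring on the median deviation 5 and 7 (14.2% and 9.67%). Eif3h, with a score of 0.0005 in all 6 libraries, was called as a fall after either centring, by subtraction of the shift alone. Centring on the median deviation without a pseudocount, chosen after seeing the data, gave 7 rises and 4 falls among 44 members.

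**Figure D2:**
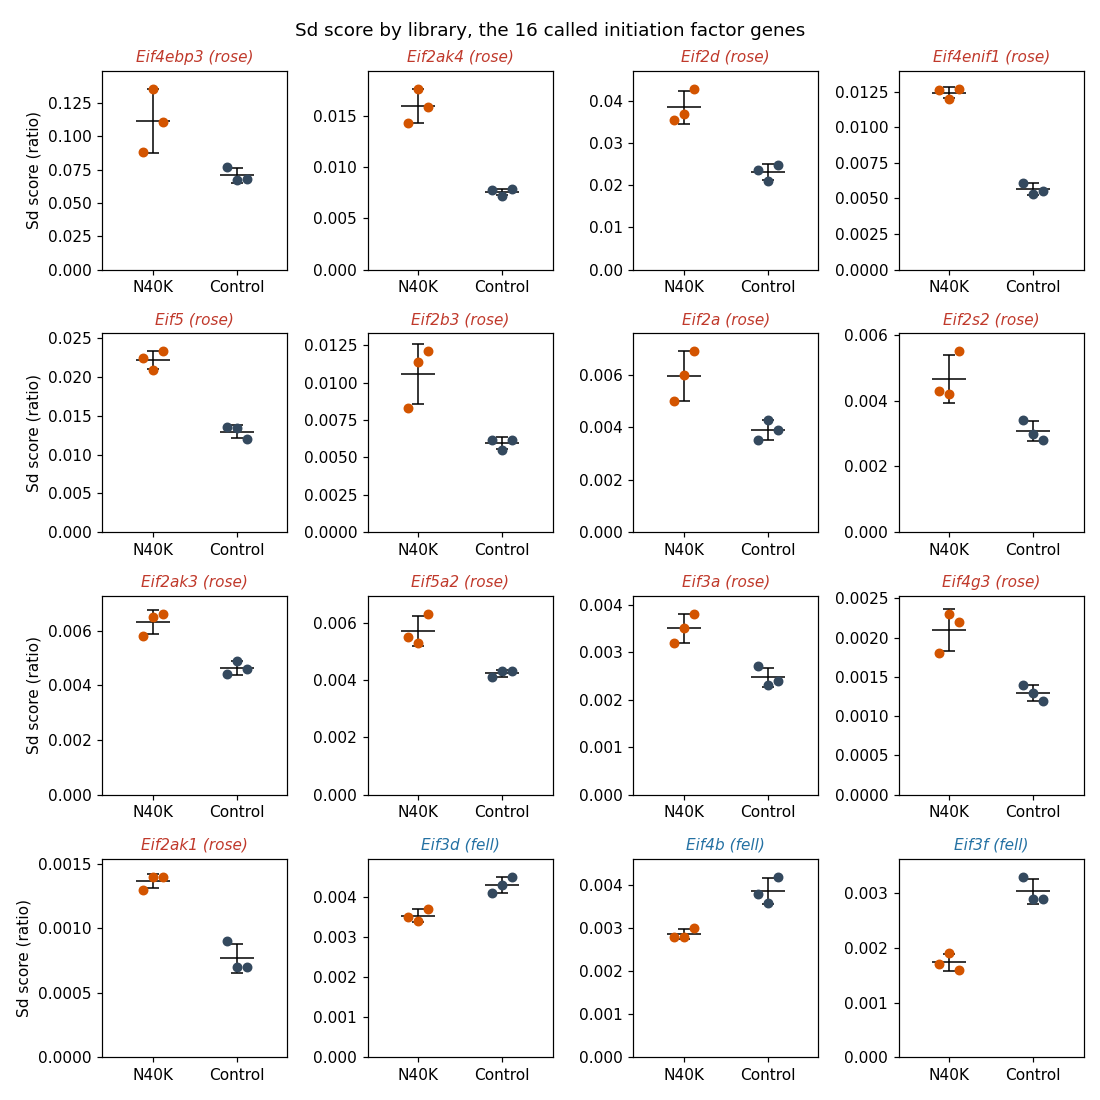
Sd score (y axis, ratio, from 0) in each library of the 16 called genes, N40K left of Control; points are libraries, horizontal bars the mean and whiskers the SD (n = 3). No N40K library overlaps the Control libraries in any of these genes, in which 13 rose and 3 fell.

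Among the factors that select the start codon, Eif5 rose and the others did not pass. Eif5 encodes the protein that triggers GTP hydrolysis by eIF2 once the start codon is found. It scored 0.0224, 0.0209 and 0.0233 with N40K and 0.0135, 0.0134 and 0.012 in Control. The lowest N40K library stood well above the highest Control library. The log2 change was 0.49 ± 0.06 (SE; limma adjusted p = 0.00499), a ratio of 1.71, and the adjusted p was at most 0.0252 when 1 library was dropped. Eif5 is a short gene of 8737 bp that overlaps no other gene and carries 1 snoRNA gene. It has 7 annotated transcripts that keep an intron, and the 5′ splice sites of 5 such introns are printed above.

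Eif1, which keeps the scanning ribosome from stopping at wrong codons, had the highest score of the 50. It scored 2.10, 2.00 and 2.03 with N40K and 1.96, 2.02 and 2.01 in Control, and the groups overlapped (ratio 1.02, limma adjusted p = 0.837). Its relative Eif1b scored 0.00473 ± 0.000404 with N40K and 0.00467 ± 0.000153 in Control (SD, n = 3 each), far below Eif1, with a ratio of 1.01. The genes of eIF1A, Eif1a and Eif1ax, had ratios of 1.05 and 0.824 and overlapping groups. After library-median centring Eif1ax and Eif1b passed as falls, and Eif1b also after quantile normalization. Eif1ad scored 0.095, 0.0947 and 0.102 with N40K and 0.0877, 0.0832 and 0.0901 in Control, without overlap but short of the test (adjusted p = 0.204).

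Of the 3 eIF2 subunit genes, which together carry the initiator tRNA, Eif2s2 (beta) rose. It scored 0.0043, 0.0042 and 0.0055 with N40K and 0.0034, 0.003 and 0.0028 in Control, a log2 change of 0.17 ± 0.04 (limma adjusted p = 0.0322; ratio 1.52). The call ended without Control 1, Control 2, Control 3 or N40K 2 (adjusted p 0.0515 to 0.106) and after library-median centring (0.41). It also ended after median-deviation centring and quantile normalization, without the eBayes trend and with a replicate block. Eif2s1, the alpha subunit that the stress kinases phosphorylate, scored 0.0035, 0.0045 and 0.0038 with N40K and 0.0032, 0.0034 and 0.0034 in Control. Its groups did not overlap, and the test was not passed (adjusted p = 0.185). Eif2s3x, the gamma subunit, had a ratio of 0.984.

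In eIF2B, which recharges eIF2 with GTP, Eif2b3 rose and the other 4 subunit genes did not pass. Eif2b3, the gamma subunit of the catalytic part, scored 0.0083, 0.0114 and 0.0121 with N40K and 0.0062, 0.0055 and 0.0062 in Control. N40K replicate 1 lay closer to Control than the other two. The log2 change was 0.36 ± 0.08 (limma adjusted p = 0.0219; ratio 1.78), and the call ended when any library other than N40K 1 was left out (0.0552 to 0.0763). It held after each of the scaling changes and ended with a replicate block. Eif2b5, the catalytic epsilon subunit, had 0.0164, 0.0155 and 0.0163 with N40K and 0.0151, 0.0155 and 0.0159 in Control (ratio 1.04, 95% interval of the log2 change -0.09 to 0.15). Eif2b4 had a ratio of 1.03, Eif2b2 of 1.12 and Eif2b1 of 1.35, the last with N40K scores of 0.0066, 0.0054 and 0.009 that overlapped Control.

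The eIF2 kinases, each of which answers to its own form of stress, held 3 rises in 4 genes, where 21.5% of all genes rose. They held 1 rise (Eif2ak4) after either centring and 2 (with Eif2ak1) after quantile normalization. Of all genes 9.75% rose after library-median centring, 14.2% with median-deviation centring and 12.9% after quantile normalization. Eif2ak4 (GCN2), which senses uncharged tRNA, scored 0.0143, 0.0176 and 0.0158 with N40K and 0.0077, 0.0072 and 0.0078 in Control. Every N40K library was above 0.014 and no Control library reached 0.008. The log2 change was 0.56 ± 0.06 (limma adjusted p = 0.00379; ratio 2.10), and the adjusted p stayed at or under 0.0224 when 1 library was dropped. Eif2ak4 spans 86617 bp with 38 introns and overlaps no other annotated gene.

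Eif2ak3 (PERK), the kinase of endoplasmic reticulum stress, rose less. It scored 0.0058, 0.0065 and 0.0066 with N40K and 0.0044, 0.0049 and 0.0046 in Control, a ratio of 1.36 (limma adjusted p = 0.0173). Its call ended without Control 1, Control 3 or N40K 2 (0.0576 to 0.0639) and after library-median centring (0.632). It also ended after median-deviation centring, with or without a pseudocount, and after quantile normalization. Eif2ak1 (HRI), the haem-regulated kinase, scored 0.0013, 0.0014 and 0.0014 with N40K and 0.0009, 0.0007 and 0.0007 in Control, a ratio of 1.78 (adjusted p = 0.00773). These scores are a few steps of the last deposited decimal, 0.0001. The call of Eif2ak1 held with any library left out, ended without the eBayes trend (0.0824), and turned in direction after library-median centring (-0.05, adjusted p = 0.174). It also ended after median-deviation centring. Eif2ak2 (PKR), which is activated by double-stranded RNA, varied most between libraries: 0.009, 0.0185 and 0.0134 with N40K and 0.012, 0.0083 and 0.0124 in Control. Its groups overlapped (adjusted p = 0.524), and the 95% interval of its log2 change, -0.24 to 0.57, includes that of Eif2ak3 in full.

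Eif2a and Eif2d, whose proteins can deliver tRNA to the ribosome without eIF2, both rose. Eif2d scored 0.0355, 0.0369 and 0.0428 with N40K and 0.0236, 0.0209 and 0.0247 in Control, with a clear gap between the groups. The log2 change was 0.55 ± 0.09 (limma adjusted p = 0.00964; ratio 1.67), and dropping 1 library took the adjusted p no higher than 0.038. Eif2a scored 0.005, 0.006 and 0.0069 with N40K and 0.0035, 0.0043 and 0.0039 in Control, a ratio of 1.53 (adjusted p = 0.0343). That call ended when any library other than N40K 1 was left out (0.0659 to 0.104) and after library-median centring (0.277). It also ended after median-deviation centring, with or without a pseudocount, after quantile normalization, without the eBayes trend and with a replicate block. By annotation Eif2d overlaps Rassf5, and Eif2a overlaps Serp1 and 6720482G16Rik; whether reads were counted by strand is not given in the sources used here.

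The 13 eIF3 genes encode the complex that holds the small subunit, the tRNA and the mRNA together. Of them 1 rose, 2 fell and 10 did not pass, and the median ratio was 0.985. That is 7.69% rising and 15.4% falling, beside 21.5% and 4.11% of all genes. The eIF3 count depended on scaling: 0 rose and 7 fell after library-median centring (Eif3h among the falls). After centring on the median deviation or quantile normalization 0 rose and 6 fell. Of all genes 18.4%, 9.67% and 12% fell in these scalings, in that order, and 9.75%, 14.2% and 12.9% rose. Eif3f scored 0.0017, 0.0019 and 0.0016 with N40K and 0.0033, 0.0029 and 0.0029 in Control, so that no N40K library reached 0.002. Its log2 change was -0.15 ± 0.02 (limma adjusted p = 0.00521) and its ratio 0.571, the lowest of the 50 genes; dropping 1 library gave an adjusted p of at most 0.0236. On the log2(score + 0.01) scale a change of so low a score is understated. Without a pseudocount Eif3f was also called as a fall.

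Eif3d, the subunit that can itself bind the mRNA cap, scored 0.0035, 0.0034 and 0.0037 with N40K and 0.0041, 0.0043 and 0.0045 in Control, a ratio of 0.822 (limma adjusted p = 0.036). Leaving out any 1 of the 6 libraries ended that call (0.0552 to 0.112). It also ended without a pseudocount, without the eBayes trend and with a replicate block, and held in the 3 scalings. Eif3k and Eif3l were also below Control in every library, at ratios of 0.776 and 0.882. Neither passed (limma adjusted p = 0.0769 and 0.137), but both passed as falls in each of the 3 scalings. Eif3k also passed without N40K 3, and Eif3l with median-deviation centring without a pseudocount.

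Eif3a, the large subunit around which eIF3 is built, went the other way. It scored 0.0032, 0.0035 and 0.0038 with N40K and 0.0027, 0.0023 and 0.0024 in Control, a ratio of 1.42 (limma adjusted p = 0.0189). The call ended without Control 2, Control 3 or N40K 2 (0.0585 to 0.0699), and the change turned to -0.02 after library-median centring (adjusted p = 0.599). The Eif3a call also ended after median-deviation centring and quantile normalization, without the eBayes trend and with a replicate block. The remaining subunit genes Eif3b, Eif3c, Eif3e, Eif3g, Eif3h, Eif3i, Eif3j and Eif3m had ratios from 0.915 for Eif3e to 1.08 for Eif3j, and each had overlapping groups. Of these, Eif3e passed as a fall in the 3 scalings (limma adjusted p 0.00994 to 0.0102) and Eif3m after library-median centring (0.0198) and quantile normalization (0.0382). Their levels differed widely, from 0.0005 for Eif3h to 0.0627 ± 0.0015 with N40K and 0.0637 ± 0.000917 in Control for Eif3i.

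In eIF4F, the helicase genes Eif4a1 and Eif4a2 did not pass, and their spread was narrow. Eif4a1 scored 0.467, 0.46 and 0.469 with N40K and 0.466, 0.472 and 0.46 in Control, and Eif4a2 scored 0.188, 0.189 and 0.179 with N40K and 0.188, 0.184 and 0.181 in Control. Their ratios were 0.998 and 1.00, with 95% intervals of the log2 change of -0.18 to 0.18 and -0.17 to 0.18. Both are host genes of intronic snoRNAs, with 3 and 5 snoRNA genes by annotation, and 15 Eif4a2 transcripts are annotated as keeping an intron. Eif4b, which stimulates eIF4A, fell: it scored 0.0028, 0.0028 and 0.003 with N40K and 0.0038, 0.0036 and 0.0042 in Control, a ratio of 0.741 (limma adjusted p = 0.0186). The call ended without Control 1, Control 3 or N40K 2 (0.0514 to 0.0636). It also ended without the eBayes trend and with a replicate block, and held in the 3 scalings. Eif4h, which also stimulates the helicase, had a ratio of 1.03.

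The cap-binding genes Eif4e, Eif4e2 and Eif4e3 did not pass, with ratios of 0.978, 0.97 and 1.21. Eif4e3 had the largest change of these, with 0.0069, 0.0089 and 0.0114 with N40K and 0.008, 0.0073 and 0.0071 in Control, and its groups overlapped (limma adjusted p = 0.381). Eif4e passed as a fall after library-median centring and after quantile normalization. Of the eIF4G scaffold genes, Eif4g3 rose. It scored 0.0018, 0.0023 and 0.0022 with N40K and 0.0014, 0.0013 and 0.0012 in Control, a ratio of 1.62 (adjusted p = 0.0166). The call ended without Control 2 or Control 3 (0.0592 to 0.064), and the change turned to -0.03 after library-median centring (0.376). The Eif4g3 call also ended after median-deviation centring and quantile normalization, without the eBayes trend and with a replicate block. Its paralog Eif4g1 scored 0.0209, 0.02 and 0.0208 with N40K and 0.0205, 0.0206 and 0.0197 in Control (ratio 1.01). Eif4g2 (DAP5), which lacks the eIF4E-binding part, scored 0.147 ± 0.00186 with N40K and 0.144 ± 0.00196 in Control (SD, n = 3 each; adjusted p = 0.811). At 215487 bp Eif4g3 is the longest of the 50 genes, against 24572 bp for Eif4g1.

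The 3 genes of 4E-binding proteins lay above Control in every library, and 2 of them passed the test. Of all genes 33.6% lay above Control in every library and 21.5% rose. Eif4enif1 (4E-T), which carries eIF4E into the nucleus and into processing bodies, scored 0.0126, 0.012 and 0.0127 with N40K and 0.0061, 0.0053 and 0.0055 in Control. The N40K libraries were tightly grouped well clear of Control, with a ratio of 2.21, the highest of the 50 genes. The log2 change was 0.52 ± 0.04 (limma adjusted p = 0.00174, the lowest of the 50), and dropping 1 library gave an adjusted p of at most 0.0151. By annotation Eif4enif1 overlaps Drg1. Eif4ebp3 scored 0.0883, 0.136 and 0.111 with N40K and 0.077, 0.0674 and 0.0677 in Control, a log2 change of 0.58 ± 0.16 (adjusted p = 0.0444; ratio 1.58). The N40K libraries were spread widely, and the call ended when any library other than N40K 1 was left out (0.0836 to 0.126). The Eif4ebp3 call also ended after each of the 3 scalings, with a pseudocount of 0.1 and without the lowest 25% of genes. Leaving out the eBayes trend, adding a replicate block or centring on the median deviation without a pseudocount ended it too. Eif4ebp2, the main 4E-binding protein of brain, scored 0.0037, 0.0032 and 0.0042 with N40K and 0.003, 0.0028 and 0.0031 in Control and did not pass (adjusted p = 0.11; ratio 1.25).

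Of the factors that act late in initiation or in elongation, Eif5a2 rose while its paralog Eif5a did not pass. Both encode hypusine-carrying factors that also help elongation. Eif5a2 scored 0.0055, 0.0053 and 0.0063 with N40K and 0.0041, 0.0043 and 0.0043 in Control, a ratio of 1.35 (limma adjusted p = 0.0228). The call ended without any of the Control libraries (0.07 to 0.0778) and after library-median centring (0.828). It also ended after median-deviation centring, with or without a pseudocount, after quantile normalization and with a replicate block. Eif5a scored 0.0514, 0.0511 and 0.0478 with N40K and 0.0494, 0.0503 and 0.0488 in Control, with overlapping groups and a ratio of 1.01. Eif5b, which joins the ribosomal subunits, had a mean of 0.00957 in both groups, and Eif6, which keeps the large subunit free, a ratio of 1.03. Whether paralogs differ in their change was not tested.

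Mean scores ran from 0.0005 in both groups (Eif3h) to 2.04 with N40K and 2.00 in Control (Eif1), and the 4 genes with the highest scores stood near a ratio of 1. With the mean taken over all libraries, 9 members scored under 0.003, of which 3 rose and 1 fell; 21 scored 0.003 to 0.01, of which 6 rose and 2 fell; and 16 scored 0.01 to 0.1, of which 4 rose and 0 fell. The other 4 (Eif1, Eif4a1, Eif4a2 and Eif4g2) scored 0.1 or more, none was called, and their ratios ran from 0.998 to 1.02. Over all genes the share that rose in these ranges was 31.7%, 29.2%, 18.4% and 8.45%, so for rises the same order was present in the table as a whole. The share that fell was 2.6%, 3.5%, 4.1% and 6.5% of all genes, rising with level, while the member falls were in the lower ranges. Taken gene by gene, the Spearman rho of the N40K to Control ratio with Control score was 0.02 in the 50 members. Over the 14914 genes matched by identifier it was -0.32.

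Gene length went with both level and change. Among the 50 genes the Spearman rho of Control score with gene length was -0.46, and that of the N40K to Control ratio with gene length was 0.34; over the 14914 genes matched by identifier they were -0.60 and 0.39. These are correlations across genes, which share libraries and an unknown depth and are not independent replicates. The 13 members that rose had a median length of 34480 bp, the 3 that fell 11820 bp and the 34 others 18250 bp. Eif5 and Eif4ebp3, of 8737 and 1858 bp, were short genes among the rises, and Eif3h (78966 bp) and Eif5b (57570 bp) long genes that did not pass. The part of length in the calls was not tested. By annotation 8 of the 13 rises, 1 of the 3 falls and 11 of the 34 others overlap another gene.

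**Figure D3:**
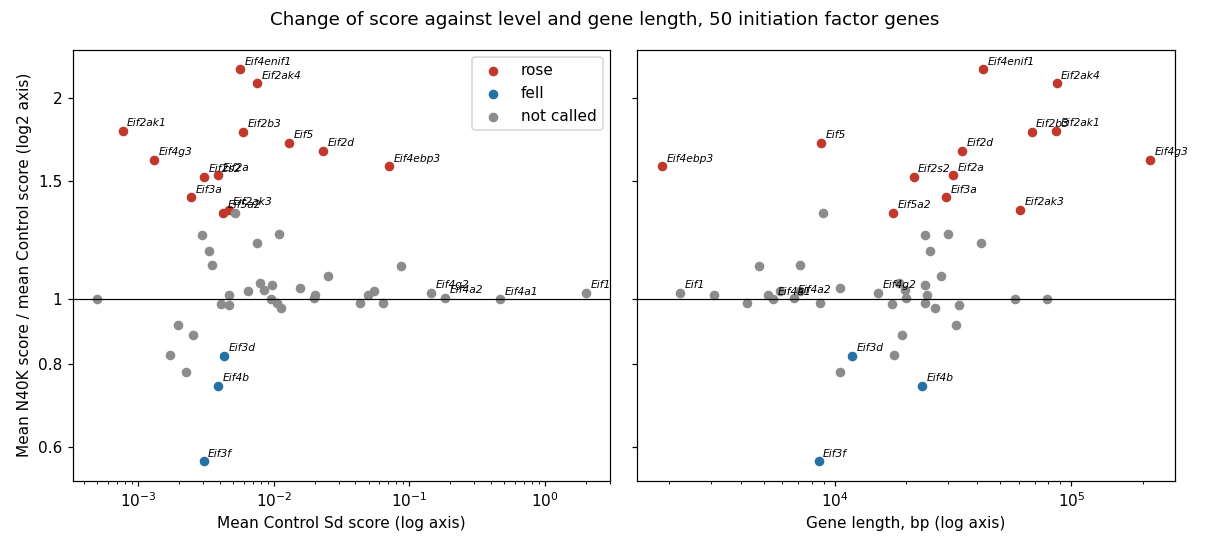
Ratio of mean N40K to mean Control score (y axis, log2 scale) of the 50 genes against mean Control score (left, log axis) and gene length in bp (right, log axis); points are genes, coloured by call. The 4 genes with scores of 0.1 or more lie at a ratio near 1, and the rises have a longer median length than the genes not called.

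Other genes of the translation pathway held rises in each of 4 lists. Of 72 listed genes with a score, 26 rose and 1 fell, 36.1% and 1.39%, beside 21.5% and 4.11% of all genes, with a median ratio of 1.16; the difference from the initiation factors was not tested. That balance depended on scaling: 9 rose and 14 fell after library-median centring, 17 and 9 with median-deviation centring, and 13 and 9 with quantile normalization. Of all genes 9.75%, 14.2% and 12.9% rose in these scalings, in that order, and 18.4%, 9.67% and 12% fell. Of 25 initiation regulators, 11 rose and 1 fell. They held 2 rises and 5 falls after library-median centring, 5 and 2 with median-deviation centring, and 3 and 2 with quantile normalization. Pdcd4, an inhibitor of eIF4A, scored 0.0063, 0.0065 and 0.0067 with N40K and 0.0032, 0.0026 and 0.0033 in Control, a ratio of 2.14 (limma adjusted p = 0.00235). Dhx29, a helicase of structured 5′ leaders, rose 1.75-fold (0.00421) and Nck1, an adaptor protein, 1.9-fold (0.00622; 0.722 after library-median centring). The fall was in Denr, a partner of MCTS1 that also handles tRNA on the small subunit, at a ratio of 0.747 (limma adjusted p = 0.0421). That call ended when any library other than N40K 3 was left out (0.0621 to 0.123). It also ended without the eBayes trend (0.108), without a pseudocount (0.0514) and with a replicate block, and held in the scalings. Denr was named after its value was seen.

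Of 17 genes of mTOR signalling, which acts on the 4E-binding proteins and ribosomal kinases, 9 rose and 0 fell (all genes 21.5% and 4.11%), against 4 and 3 after library-median centring, 7 and 1 with median-deviation centring, and 6 and 1 with quantile normalization. Rptor, the substrate-binding subunit of mTORC1, scored 0.003, 0.0037 and 0.0034 with N40K and 0.0018, 0.0017 and 0.0017 in Control, a ratio of 1.94 (limma adjusted p = 0.00462; 0.183 after library-median centring). Tsc1, an inhibitor of the pathway, rose 1.78-fold (0.00718) and Rragc, of the amino acid-sensing Rag GTPases, 2.01-fold (0.00898). Of 16 elongation and termination genes, 5 rose and 0 fell. After library-median centring 3 rose and 3 fell, with median-deviation centring 5 and 3, and with quantile normalization 4 and 3. The rises included the release factor genes Etf1 (2.09-fold, 0.00158) and Gspt1 (1.36-fold, 0.00709, not called after library-median centring or quantile normalization) and the ribosome-rescue gene Hbs1l (1.74-fold, 0.00534). Of all genes 9.75%, 14.2% and 12.9% rose in these scalings, in that order, and 18.4%, 9.67% and 12% fell.

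The stress list of 14 genes holds regulators and targets of the eIF2 kinases (such as Gcn1l1 and Atf4) and genes of the other arms of the unfolded protein response (Atf6, Ern1, Xbp1 and Hspa5). In it 1 gene rose and 0 fell, or 7.14% and 0%, beside 21.5% and 4.11% of all genes. In each of the 3 scalings 0 rose and 3 fell, where 9.67% to 18.4% of all genes fell. The rise was in Atf6, a stress sensor of an arm separate from the eIF2 kinases, at 0.0014, 0.0015 and 0.0015 with N40K and 0.001, 0.0008 and 0.0009 in Control (limma adjusted p = 0.00827). Atf6 did not pass in any of the 3 scalings, without the eBayes trend or with a replicate block. In 3 of the 14 genes every N40K library stood above every Control library, and in 3 below. That is 21.4% each, beside 33.6% and 8.67% of all genes. The 3 below were Ddit4 (ratio 0.549, limma adjusted p = 0.0518), Sesn2 (0.796, 0.0695) and Atf5 (0.806, 0.088), and none of them passed. Atf4, the transcription factor whose translation rises when eIF2 is phosphorylated, scored 0.0123, 0.0117 and 0.0124 with N40K and 0.011, 0.0128 and 0.0097 in Control, with overlapping groups (adjusted p = 0.506). Gcn1l1, which activates the Eif2ak4 product, had a ratio of 1.09 (0.397). Ddit4, Sesn2, Atf5, Atf4 and Gcn1l1 were named after their values were seen. A score says nothing of translation or of the level of these genes.

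**Figure D4:**
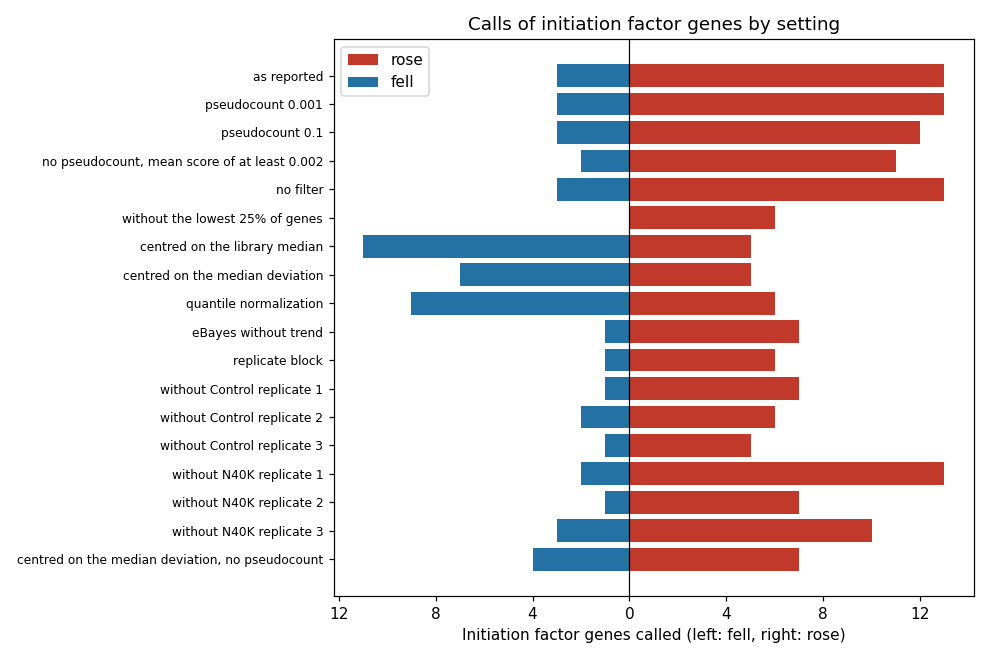
Number of the 50 initiation factor genes called as risen (right) or fallen (left) with scores as deposited and under each of 17 other settings (rows). The 13 rises and 3 falls become 5 and 11 after library-median centring, and 5 to 13 rises and 1 to 3 falls with a library left out.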

How the data were processed

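RNA was measured in 6 libraries, 3 N40K and 3 Control. Libraries were stranded, made from poly(A)-selected RNA and read as 100 nt pairs, per the labels' protocols. CASAVA, STAR, BWA, bedtools 2.16.1 and build mm9 are named in the submitters' processing notes. The authors deposited 1 table of Sd scores, handled as a linear ratio with 4 decimals per the file header and values; the sources used here do not give its formula, annotation or filters. Depth is unknown, so no interval that needs it is printed, and the number of libraries limits the precision.

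Columns were assigned by name, 0 were left unused, and no columns were identical. All 15705 genes were fitted as log2(score + 0.01) with limma 3.58.1 (R 4.3.3, eBayes with trend), 2-sided, Benjamini-Hochberg adjusted over all genes, threshold 0.05. The filter (above 0 in at least 3 libraries) removed 0 genes. Members, lists and tests were chosen with earlier results of these data known. Values per library are given for called members, the member with the largest change in each complex, and paralogs of called members; in other lists, for up to 3 called genes with the smallest p. The other lists held 79 symbols, of which 72 had a score. Structure came from GENCODE M21 (GRCm38), 49 members matched by identifier and 1 by symbol. Genes with pseudogenes are uncertain where reads were shared. The fit was checked on simulated data in which few genes changed, in both directions and without an overall shift, so the check does not bear on scaling.

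Alternatives were pseudocounts of 0.001 and 0.1, no pseudocount (mean score of at least 0.002), no filter, dropping the lowest 25% of genes, 3 scalings, eBayes without trend, a replicate block, each library left out, and, chosen after seeing the data, centring on the median deviation without a pseudocount.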

Additional observations from a re-analysis of the deposited data

How the results depend on the processing

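The counts of called genes depended on the setting. The firm calls were picked as those that held in every setting in which they had a value. That their directions stayed the same follows from this choice. The initiation factor genes called (16) became 8 without the eBayes trend and 6 without the lowest 25% of genes, and 6 to 15 with a library left out. The 13 rises became 5 after library-median centring, 5 after centring on the median deviation, 7 with that centring and no pseudocount, 6 after quantile normalization, 7 without the trend, 6 without the lowest 25%, and 5 to 13 with a library left out. The 3 falls became 11, 7, 4, 9, 1 and 0 in the same settings, and 1 to 3 with a library left out. All called genes (4017) became 2451 without the lowest 25%, and 1947 to 4215 with a library left out. The other translation genes called (27) became 13 without the lowest 25%, and 15 to 27 with a library left out; their 26 rises and 1 fall became 9 and 14, 17 and 9, and 13 and 9 after library-median centring, centring on the median deviation and quantile normalization. Dropping the lowest 25% leaves 30 of the 50 members; otherwise the cause was not tested.

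Scaling turned the sign of many small changes: 21 of the 50 after library-median centring, which moves all genes alike, and 15 after centring on the median deviation or quantile normalization. Those that passed the test before or after the turn (or, for Eif3h, after starting at 0) were Eif2ak1 (-0.052), Eif3a (-0.016), Eif4g3 (-0.032), Eif3h (-0.13) and Eif1b (-0.12) after library-median centring, Eif3h (-0.065) after centring on the median deviation and Eif1b (-0.088) after quantile normalization.

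Same-numbered libraries did not deviate together (r = -0.07, 0.04 and -0.02 over genes), so no effect shared by number was seen. Whether same-numbered libraries were prepared together cannot be told from this. With a replicate block 7 members were called, 6 as rises and 1 as a fall, of 2098 genes in all, and 14 other translation genes.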
